A study of Mus musculus with 9 samples.

Results

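The teneurin genes Tenm1, Tenm2, Tenm3 and Tenm4 were examined for N6-methyladenosine (m6A) peaks in wild-type mouse embryonic stem cells (mESCs). They are 4 of 49997 genes of the RefSeq annotation of GRCm38 (mm10), and were chosen by name with earlier peak values of these data known. Every peak within 500 bp of their gene bodies was taken, which gave 36 peaks, 26 of them in wild-type replicate 1 and 10 in wild-type replicate 2. The number, position, width, enrichment and overlap of these peaks are therefore a description, and none of them was tested. The series holds 9 libraries: 2 m6A immunoprecipitations and 1 input for each of the genotypes Mettl3KO, Zc3h13KO and WT, all in a Rosa26:CRE background with the Bir ligase. Of these, the 2 WT immunoprecipitations were used, and 7 libraries were not analysed here. In m6A-RIP-seq, RNA fragments that carry m6A are enriched with an antibody from mRNA selected on oligo-dT, and sequenced. The labels call the libraries replicates and the study calls the immunoprecipitations independent, but neither states separate cultures.

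Teneurins are large transmembrane proteins that cross the membrane once and carry EGF-like repeats and a barrel of YD repeats outside the cell. They pair with each other between cells and bind latrophilins, which are adhesion G protein-coupled receptors, and they are best known for matching partner neurons and for building synapses. Tenm4, formerly Odz4, is also needed for mouse gastrulation. m6A is written on mRNA by a complex around Mettl3 and Mettl14, and in mammalian mRNAs it is known to be frequent near stop codons and in long internal exons.

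Replicate 1 held 22531 peaks and replicate 2 held 5040, with median widths of 445 and 446 bp. Each peak has a fold enrichment over input and a −log10 q, which grows as the peak caller's false discovery rate falls, both taken from the authors' MACS2 output. The lists hold no read counts, which leaves the depth unknown, and fold enrichments of the lists are set side by side without adjustment. The lists give no expression either, so neither the embryonic stem cell identity nor the expression of a teneurin gene could be checked from them. Peak names in the list of replicate 1 carry a sample name that does not mention wild-type cells, so every result is given for each replicate by itself.

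Tenm3 and Tenm4 carried peaks in both wild-type replicates, and Tenm1 and Tenm2 carried none in either. Tenm3 had 15 peaks in replicate 1 and 5 in replicate 2, and Tenm4 had 11 and 5. A peak in both replicates was thus present at 2 of 4 teneurin genes, against 16.1% of the 21900 protein-coding genes. A peak was present in replicate 1 at 41.3% and in replicate 2 at 16.9% of protein-coding genes, and 57.9% had none in either list. These counts are the values that the choice of genes rests on, so nothing is read from them about the family as a whole.

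The 4 genes are among the longest in the annotation. Tenm1 spans 901303 bp of chromosome X from 42527866 to 43429168, and Tenm2 spans 1230398 bp of chromosome 11 from 36006656 to 37237053. Tenm3 spans 1297160 bp of chromosome 8 from 48225665 to 49522824, and Tenm4 spans 739850 bp of chromosome 7 from 96171244 to 96911093. By the strand of their annotated starts, Tenm1, Tenm2 and Tenm3 are read towards the lower coordinate and Tenm4 towards the higher. Tenm4 is the shortest, and 107 other protein-coding genes have a gene body at least as long. Among these long genes, 38.3% had a peak in replicate 1, 11.2% in replicate 2 and 11.2% in both, while 61.7% had none. Tenm1 and Tenm2 are therefore with the larger share of long genes, and Tenm3 and Tenm4 with the smaller.

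**Figure D1:**
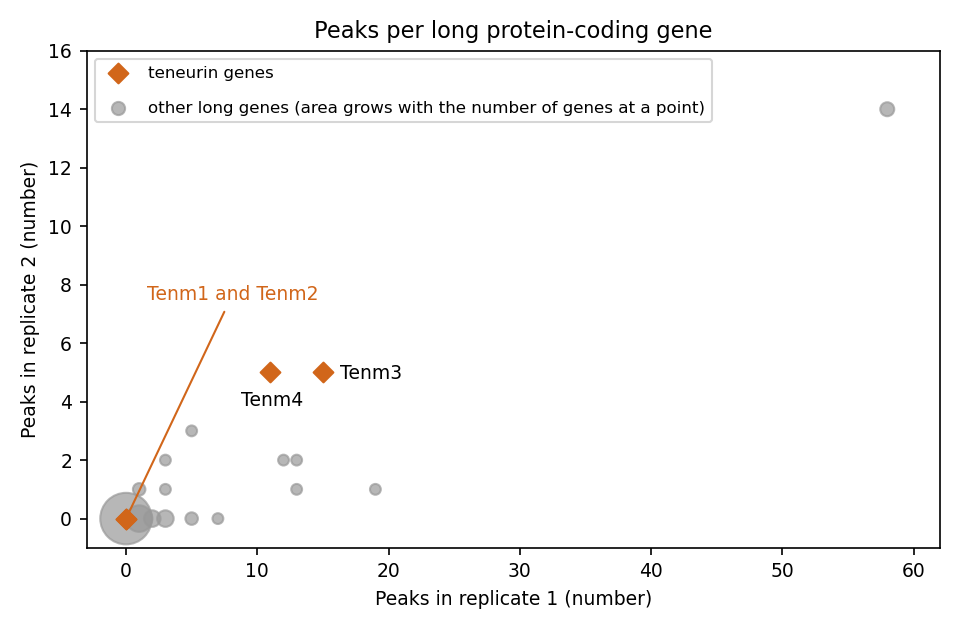
Number of peaks within 500 bp of each protein-coding gene whose body is at least as long as that of Tenm4, in replicate 1 (x axis) and replicate 2 (y axis). Diamonds are the 4 teneurin genes and grey circles the other 107 genes, with a larger area where several share a point. Tenm3 (15 and 5 peaks) and Tenm4 (11 and 5) lie away from the origin, where Tenm1 and Tenm2 lie, and the circle at 58 and 14 is 3 overlapping gene models.

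By number of peaks, Tenm3 and Tenm4 were near the top of all protein-coding genes. In replicate 1, 25 protein-coding genes had more peaks than Tenm3 and 63 had more than Tenm4, of 9038 with any peak. In replicate 2, 27 genes had more than the 5 peaks of Tenm3 and of Tenm4, of 3704 with any peak. Protein-coding genes with a peak had a median of 2 peaks in replicate 1 and 1 in replicate 2. Of the other long genes, 4 had more peaks than Tenm3 in replicate 1, namely Arhgap26 with 19 and the gene models Gm37013, Gm38666 and Gm38667 with 58 each, which overlap and take the same peaks. Those 3 gene models were also the only other long genes with more than 5 peaks in replicate 2.

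Where the peaks lay was similar in both genes: towards the 3′ end of a very long gene body. All 15 replicate 1 summits of Tenm3 lay in the last 15% of its body, from 2776 bp to 191549 bp before the 3′ end, and 14 of them lay in the last 10%. Counted from the annotated start of Tenm3, which lies far inside the body, 9 of the 15 lay in the last 15% and 8 in the last 10%. The 5 replicate 2 summits of Tenm3 lay between 2780 and 50903 bp before that end. Of the 11 replicate 1 summits of Tenm4, 8 lay in the last 10% of the body, and the nearest was 4629 bp before the 3′ end. The 5 replicate 2 summits of Tenm4 lay between 4635 and 37398 bp before it. The remaining 3 replicate 1 summits of Tenm4 lay 87417, 113794 and 706788 bp before the 3′ end.

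Over both genes, 84.6% of 26 replicate 1 summits and 100% of 10 replicate 2 summits lay in the last 10% of the gene body. In the other long protein-coding genes of known strand this share was 52.7% of 74 summits in replicate 1 and 33.3% of 9 in replicate 2. Over all other protein-coding genes of known strand it was 31.6% of 15806 summits and 43.4% of 3845. A summit assigned to more than 1 gene of a set was counted for each of them. With the most upstream annotated start of each gene in place of the edge of its body, the share in replicate 1 was 61.5% of 26 summits in the teneurin genes, 50.7% of 71 in the other long genes and 31.3% of 15467 in all others. In replicate 2 it was 90% of 10, 33.3% of 9 and 43.0% of 3782. Strand was known for 82 of the 107 other long genes, and the 3 overlapping gene models were not among them. Of these 82 genes, 29 had a peak in replicate 1 and 6 in replicate 2, against 41 and 12 of all 107. The 36 teneurin summits come from 2 genes and many mark the same sites, so this difference was not tested. The gene table gives no exons, so a peak could not be placed in an exon, an intron or a UTR, nor relative to a stop codon, and body length here includes introns.

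**Figure D2:**
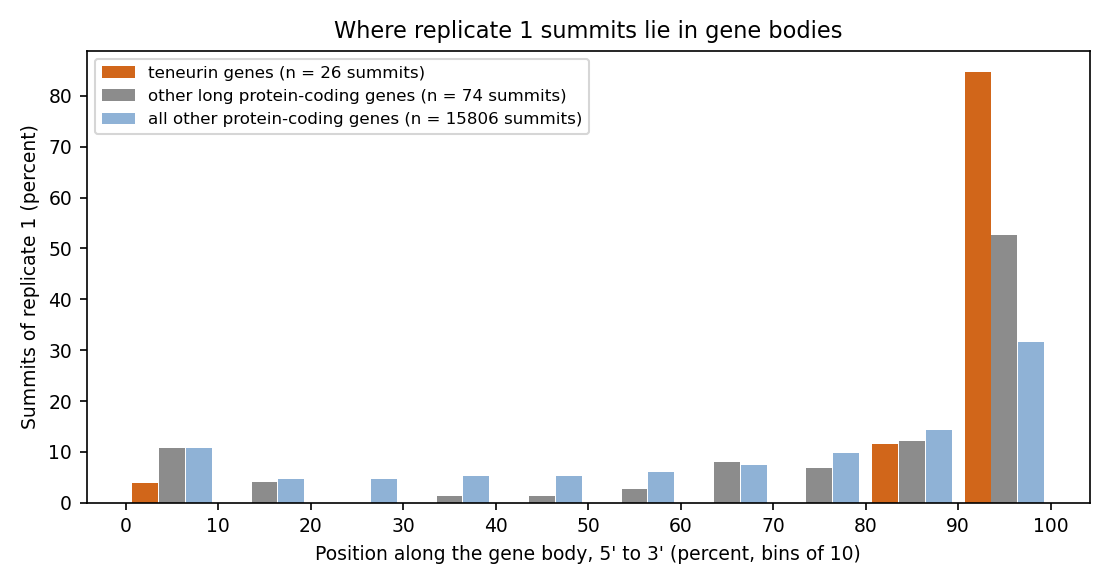
Share of replicate 1 summits, in percent, in 10 equal bins of the gene body from the 5′ to the 3′ end. Bars are the teneurin genes (26 summits of 2 genes), the other long protein-coding genes (74 summits) and all other protein-coding genes (15806 summits, long genes included), and in the last bin they reach 84.6%, 52.7% and 31.6%. A summit assigned to more than 1 gene of a set is counted for each of them.

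The 5′ end of the gene bodies was almost free of peaks. No peak of either list overlapped the window of 250 bp before to 50 bp after any of the 5 annotated starts of the 4 genes. The gene body of Tenm3 extends 848134 bp upstream of its annotated start at 48674690, and all of its peaks lay downstream of that start. The nearest was 257234 bp away in replicate 1 and 397716 bp away in replicate 2. From this start to the 3′ end is 449026 bp, or 34.6% of the gene body. The place of a peak in percent thus depends on the start used, while its distance to the 3′ end does not. The gene bodies of Tenm1 and Tenm2 also begin upstream of their annotated starts, so the starts listed may not be all. Tenm4 had annotated starts at 96171244 and 96211671. A single replicate 1 peak lay between them, from 96203816 to 96204621, enriched 7.60-fold at a −log10 q of 12.8. It ended 7050 bp before the second start, overlapped no replicate 2 peak and lay 175 bp from the pseudogene Gm8319. Mir708, a microRNA gene inside the body of Tenm4, was 44803 bp from the nearest replicate 1 peak and 623914 bp from the nearest of replicate 2.

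**Figure D3:**
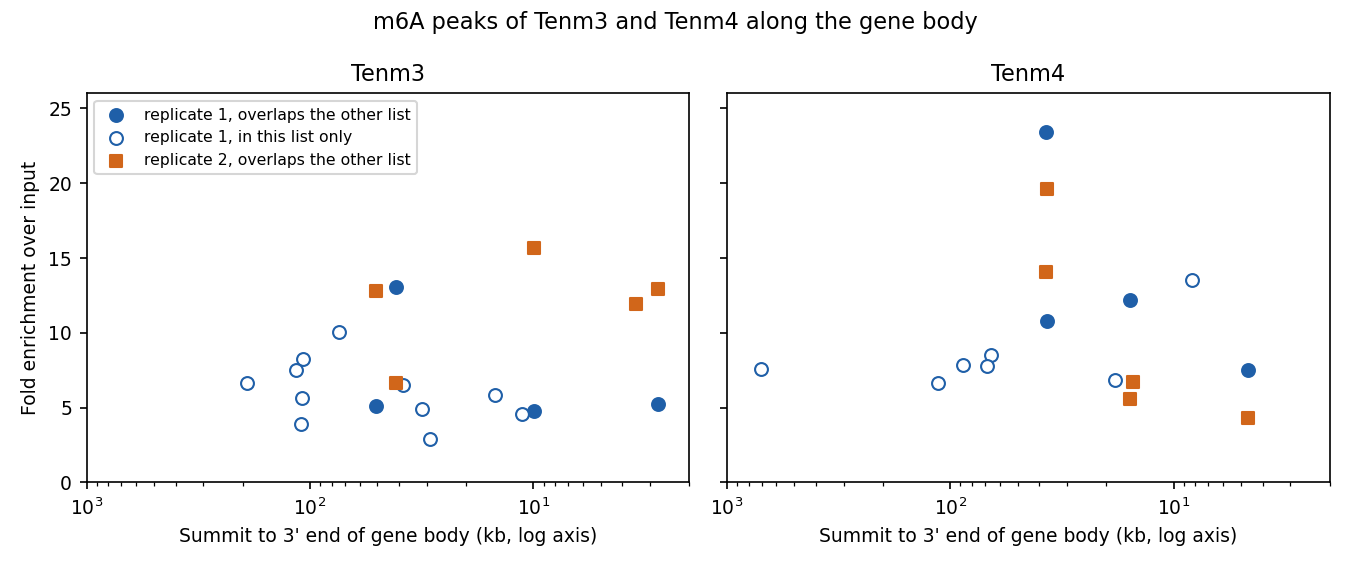
Fold enrichment over input of each Tenm3 and Tenm4 peak against the distance of its summit from the 3′ end of the gene body in kb, on a log axis with the 3′ end to the right. Circles are replicate 1 and squares replicate 2, filled where the peak overlaps a peak of the other list. Filled symbols lie within 50904 bp of the 3′ end in both genes, and the open circles reach 191549 bp in Tenm3 and 706788 bp in Tenm4.

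Every replicate 2 peak of Tenm3 and Tenm4 overlapped a replicate 1 peak of the same gene, 10 of 10, against 92.1% of all replicate 2 peaks. The samples hold a single wild-type input, so the 2 lists may share their control, and its part in the overlap was not tested. In the other direction 4 of 15 replicate 1 peaks of Tenm3 and 4 of 11 of Tenm4 overlapped a replicate 2 peak, together 30.8%, against 19.1% of all replicate 1 peaks. In each gene the 5 replicate 2 peaks fell on 4 replicate 1 peaks, because a wide replicate 1 peak took in 2 of them. In 8 of the 10 pairs the summits lay within 100 bp of each other, and in 7 of them within 20 bp. The summits of the other two pairs, 711 bp apart in Tenm3 and 547 bp apart in Tenm4, belong to those wide peaks, whose summit matched the other replicate 2 peak within 4 and 1 bp.

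The shared sites of Tenm3 were at 4 places in the last 50904 bp of the gene body. Closest to the 3′ end, a replicate 1 peak from 48227888 to 48229418, 1531 bp wide, was enriched 5.26-fold at a −log10 q of 98.6. Replicate 2 had 2 peaks there, 12.9-fold from 48227834 to 48228782 and 11.9-fold from 48228855 to 48229409. The next site had the highest replicate 2 peak of the gene, from 48235401 to 48235998 with a fold enrichment of 15.7. It had 4.77 in replicate 1, where the peak ran from 48235379 to 48236030. At the third site, replicate 1 had its highest Tenm3 peak, from 48266750 to 48267511 and enriched 13.1-fold, and replicate 2 had its lowest, from 48266812 to 48267259 and 6.65-fold. At the fourth, from 48276117 to 48277071 in replicate 1 and from 48276120 to 48276974 in replicate 2, the fold enrichments were 5.14 and 12.8. The shared site that was highest in 1 replicate was thus the lowest of the shared sites in the other, in both directions.

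Tenm4 had its shared sites at 3 places in the last 37412 bp. Nearest to the 3′ end was a peak from 96905638 to 96906803 in replicate 1 and from 96905666 to 96906645 in replicate 2, with fold enrichments of 7.54 and 4.31. The widest teneurin peak of replicate 1 followed, from 96894595 to 96896172, 1578 bp wide, enriched 12.2-fold at a −log10 q of 157.4, the highest −log10 q of the 36 peaks. Replicate 2 had peaks from 96895740 to 96896090 and from 96895220 to 96895581 within it, with 6.70 and 5.59. The third place held a pair of neighbouring peaks in each replicate. Replicate 1 had a fold enrichment of 10.8 from 96873999 to 96874435 and of 23.4 from 96873429 to 96873920. Replicate 2 had 19.6 from 96873997 to 96874456 and 14.1 from 96873446 to 96873908. This place held the highest fold enrichment of Tenm4 in both replicates, but in the more 5′ peak of the pair in replicate 1 and in the more 3′ one in replicate 2.

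**Figure D4:**
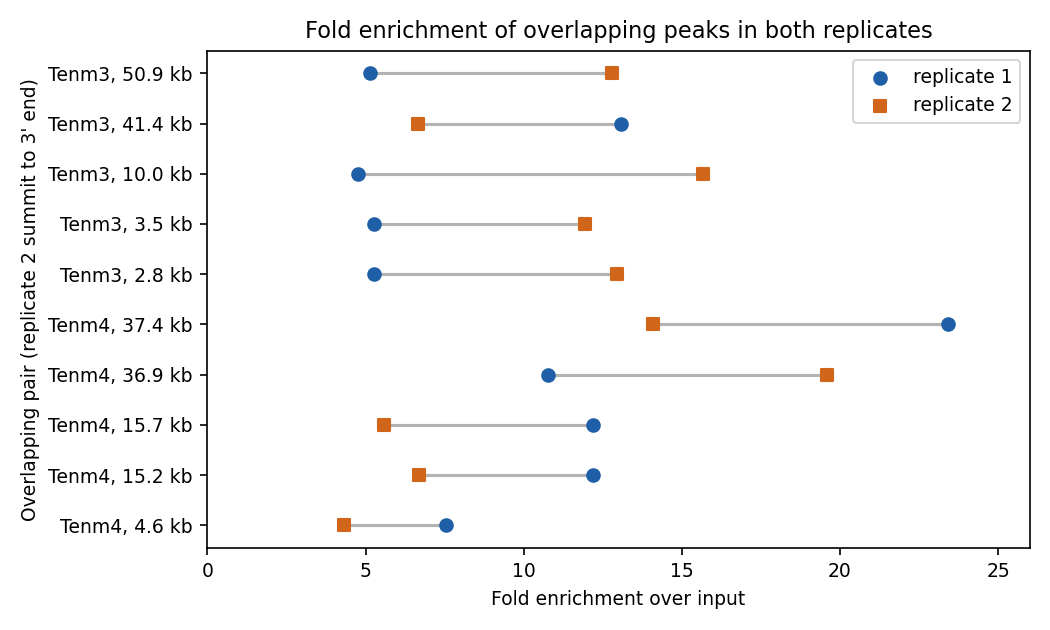
Fold enrichment over input of the 10 overlapping pairs of peaks, circles for replicate 1 and squares for replicate 2, each row named by the gene and the distance of the replicate 2 summit from the 3′ end in kb. A wide replicate 1 peak is drawn once for each replicate 2 peak it overlaps. Replicate 2 is higher in 4 of 5 Tenm3 pairs and replicate 1 in 4 of 5 Tenm4 pairs.

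Between replicates, the genes differed in which list gave the higher value. Replicate 2 was higher in 4 of 5 pairs of Tenm3, and replicate 1 was higher in 4 of 5 pairs of Tenm4. The pairs of a gene come from the same libraries and some share a peak, so the difference was not tested. Tenm3 peaks had a median fold enrichment of 5.64 in replicate 1 and of 12.8 in replicate 2, and Tenm4 peaks had 7.83 and 6.70. Over all peaks the medians were 5.39 in replicate 1 and 6.35 in replicate 2. In replicate 1, 19 of the 26 teneurin peaks were above the median fold enrichment of that list, and in replicate 2, 8 of 10 were. By −log10 q, 13 of 26 and 8 of 10 were above the median of their list, and by width 10 of 26 and 8 of 10. The median width of teneurin peaks was 361.5 bp in replicate 1, against 445 bp for the whole list, and 509 bp in replicate 2, against 446 bp.

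The replicate 1 peaks found again in replicate 2 were those with the highest −log10 q in both genes. In Tenm3, the 4 overlapping peaks had a −log10 q of 83.2 to 98.6, while the 11 others had 10.01 to 43.2. In Tenm4, the 4 overlapping peaks had 91.5 to 157.4, while the 7 others had 9.77 to 43.9. The ranges did not overlap in either gene. By fold enrichment the ranges overlapped. In Tenm3, the median fold enrichment was 5.20 for the overlapping peaks and 5.85 for the others, and in Tenm4 it was 11.5 and 7.78. The peak with the highest fold enrichment of each gene was among the overlapping ones, and over both genes the medians were 9.16 and 6.74. The overlapping peaks were also wider, with median widths of 858.5 bp against 335 bp in Tenm3 and 829 bp against 312 bp in Tenm4. Over all replicate 1 peaks, overlapping ones had a median −log10 q of 74.6 and the others 23.6, with median widths of 797 and 394 bp and median fold enrichments of 5.72 and 5.32.

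**Figure D5:**
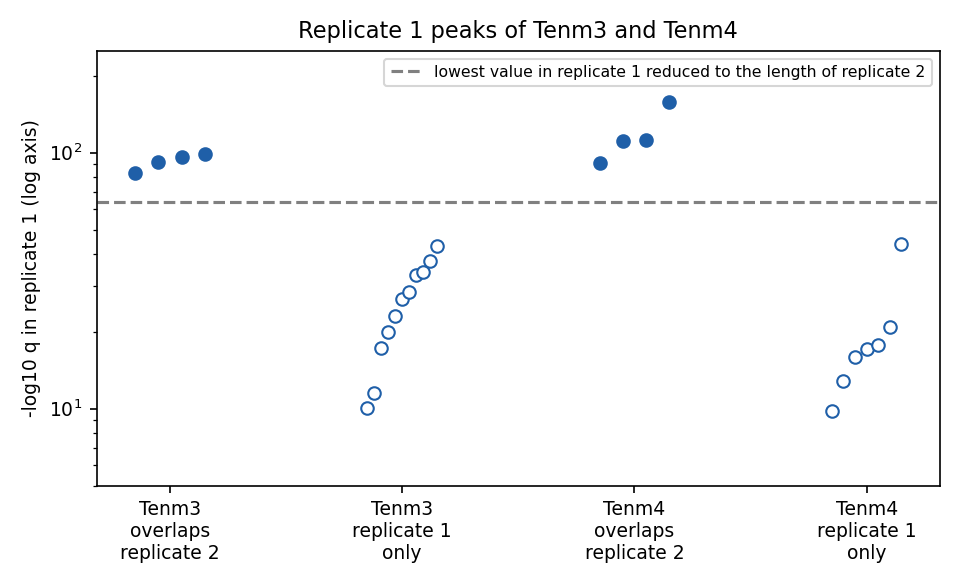
−log10 q of the 26 replicate 1 peaks of Tenm3 and Tenm4 on a log axis, filled for peaks that overlap a replicate 2 peak and open for the others. The dashed line at 64.3 is the lowest value left when replicate 1 is reduced to its 5040 peaks of highest value, the length of the replicate 2 list. The 8 filled points lie above it, between 83.2 and 157.4, and the 18 open ones below, between 9.77 and 43.9.

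The 11 Tenm3 peaks seen in replicate 1 alone were narrow, 299 to 623 bp, and their fold enrichments ran from 2.93 to 10.1. Between the shared sites lay 5 of them, at 11256, 14843, 28942, 31393 and 38190 bp before the 3′ end. Farther upstream, the peak at 74098 bp had the highest fold enrichment of the 11, with 10.1 and a −log10 q of 33.2. A group of 4 followed between 106970 and 115509 bp, with fold enrichments of 8.22, 5.64, 3.92 and 7.49, and the last stood alone at 191549 bp with 6.64. The peak at 106970 bp also lay at the lncRNA gene Gm51531. Strand is not given for peaks, so it may belong to either gene.

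The 7 Tenm4 peaks seen in replicate 1 alone were 301 to 806 bp wide. The highest, from 96902636 to 96902956, was enriched 13.5-fold at a −log10 q of 43.9. It lay 8299 bp before the 3′ end, between the first and the second shared site, and had the second highest fold enrichment of the gene in that list. The other 6 had fold enrichments of 6.65 to 8.55. The peak at 113794 bp also lay at the lncRNA gene Gm15413, and it had the lowest fold enrichment and the lowest −log10 q of the 11 peaks of Tenm4 in replicate 1, with 6.65 and 9.77. Of the 26 replicate 1 teneurin peaks 3 lay within 500 bp of another annotated gene as well, and of the 10 in replicate 2 none did. The peak near Gm8319 lay 175 bp from that gene and did not overlap it.

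Against the whole lists, the highest peak of Tenm4 in each list stood near the top. By fold enrichment, that of replicate 1 ranked 280 of 22531 and that of replicate 2 ranked 31 of 5040. They are neighbouring peaks, not a pair. The replicate 2 partner of the former ranked 183, and the replicate 1 partner of the latter ranked 2902. The highest peak of Tenm3 ranked 1804 in replicate 1 and 112 in replicate 2, at different sites. The replicate 2 partner of the former ranked 2268, and the replicate 1 partner of the latter ranked 12969. Ranked as genes by their highest peak, 250 protein-coding genes were above Tenm4 in replicate 1 and 31 in replicate 2, while 1369 and 109 were above Tenm3. Of the other 107 long genes, only 12 had a peak in replicate 2, and none of these had a higher fold enrichment than Tenm3 or Tenm4. In replicate 1, 41 of the 107 had a peak, and 9 were above Tenm3 and 4 above Tenm4. The peaks covered little of the genes: 8059 bp or 0.621% of the body of Tenm3 and 6349 bp or 0.858% of that of Tenm4 in replicate 1, and 3405 bp or 0.262% and 2616 bp or 0.354% in replicate 2.

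The 500 bp allowance played no part in the counts of peaks per teneurin gene. All 36 peaks lay inside the gene bodies, the closest to an edge 2169 bp inside the 3′ edge of Tenm3, in replicate 2. The closest peak outside Tenm3 was 84755 bp away in replicate 1, at Dctd, and 356722 bp away in replicate 2, at Wwc2. Outside Tenm4 it was 44619 bp away at Nars2 in replicate 1, and 400380 bp away at Usp35 in replicate 2. For Tenm1 the closest replicate 1 peak lay 36922 bp below the gene body, at Tex13d, and for Tenm2 it lay 26178 bp below, at Wwc1. In replicate 2 the closest peaks to Tenm1 and Tenm2 were 1360066 and 2464080 bp away. The 4 other genes annotated inside or across Tenm1 and the 7 at Tenm2 had no peak in either list.

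Genes whose numbers and heights of peaks were most like those of Tenm3 and Tenm4 came from other families. Likeness was the distance over log2 of the number of peaks and log2 of the highest fold enrichment in both replicates, so it rests on 2 libraries and 4 values. Among 3530 other protein-coding genes with a peak in both lists, Bcl9l, Zfp764 and Btbd11 were closest to Tenm3, at distances of 0.54, 0.77 and 0.82. Bcl9l, which encodes a co-activator of beta-catenin, had 12 and 4 peaks in replicates 1 and 2, with highest fold enrichments of 14.9 and 13.4. Closest to Tenm4 were Zfp827, Prdm16 and Zfp764, at 0.44, 0.50 and 0.56. Zfp827, a zinc finger gene, had 9 and 4 peaks, with highest fold enrichments of 22.8 and 19.3, and Prdm16, a zinc finger gene with a PR domain, had 11 and 6, with 28.6 and 15.7. Tenm4 ranked 10 among the genes most like Tenm3, at a distance of 1.00.

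Of 13 genes of teneurin partners, 4 had a peak in both replicates, 4 had peaks in replicate 1 only and 5 had none. Of all protein-coding genes, 16.1% had a peak in both, 41.3% had a peak in replicate 1 and 57.9% had none in either list. Adgrl1, Adgrl2 and Adgrl3 encode latrophilins, the receptors of teneurins. Adgrl1 had 13 peaks in replicate 1, enriched at most 4.78-fold, and 1 in replicate 2, enriched 2.10-fold. Adgrl2 had 8 and 1, enriched at most 10.04-fold and 11.1-fold. Adgrl3 had 1 peak, in replicate 1, enriched 8.23-fold, and the related Adgrl4 had none. Flrt1, Flrt2 and Flrt3 encode leucine-rich repeat proteins that bind latrophilins alongside teneurins. The highest peak of Flrt3 was enriched 10.8-fold in replicate 1 and 6.97-fold in replicate 2, and that of Flrt1 23.0-fold and 4.55-fold, while Flrt2 had 4 peaks in replicate 1 and none in replicate 2. The bodies of Flrt1 and Flrt3 lie within those of Macrod1 and Macrod2, so their peaks may belong to either gene, and peaks of Adgrl1, including the shared one, also lay at Gm10644. The 4 genes of Unc5 receptors, which bind FLRT proteins, had no peak in either list. Dag1, the dystroglycan gene, had 5 peaks in replicate 1 and none in replicate 2, and Mbd1, which encodes a partner reported for the intracellular part of a teneurin, had 2 in replicate 1 and none in replicate 2. None of these 13 genes had more than 1 peak in replicate 2, which is the median of protein-coding genes with a peak there. Tenm3 and Tenm4 had 5 each, and 49 of the 21900 protein-coding genes (0.224%), these included, had at least 5.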

How the data were processed

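Per the submitters' processing notes, Bowtie, SAMtools and MACS2 were used on mm10, and no version is named. The authors ran MACS2 with its default settings on every wild-type immunoprecipitation separately, with input as the control. The samples hold 1 wild-type input, and which input reads each call used is not stated, so both lists may share their control. The deposited peak lists hold a fold enrichment (a ratio) per peak, its −log10 p-value and −log10 q-value, and a score that is 10 times the −log10 q without its decimals; score and p-value were left out.

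Peaks were assigned to RefSeq gene bodies of GRCm38 within 500 bp, as the study did, and overlap meant at least 1 bp. Strand and starts came from RefSeq promoter windows of GRCm38.p6. As a check of the build, 92.2% of replicate 1 summits lay in a gene body, against 56.1% after a shift of 1000000 bp. Members and lists were chosen with earlier results of these data known. The named genes are the 4 teneurins, 13 partner genes (1 more gene of that list is not reported here), genes at a teneurin peak and, for each teneurin with peaks in both lists, the 3 most similar genes; genes next to the bodies, Mir708 and the long genes with the most peaks were named after their values were seen. No test was run. Depth is unknown. Overlap and assignment were tested on simulated data with 0 differences. Python 3.11.15, numpy 2.4.6, pandas 2.3.3 and matplotlib 3.10.9 were used. Sequences under the peaks were not analysed here.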

Additional observations from a re-analysis of the deposited data

How the results depend on the processing

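The 26 teneurin peaks of replicate 1 became 8 when that list was shortened to the length of the replicate 2 list by −log10 q, with 4 left in Tenm3 and 4 in Tenm4, and all 8 overlapped a replicate 2 peak. A shorter list holds fewer peaks by construction. The other counts of teneurin peaks and genes stayed within 1.5 times of those reported, whether peaks needed a fold enrichment of 4 or more, a −log10 q of 5 or more, a distance of 0 or 2000 bp from the body, a mutual overlap of 50%, or summits 100 bp apart or less. Of the 10 replicate 2 peaks, 7 met the mutual overlap and 8 the summit distance. The highest fold enrichments of Tenm3 and Tenm4 were identical in the settings of fold enrichment, −log10 q, distance and list length. They were not computed for the other settings. A lower limit on fold enrichment cannot change a maximum above it, and the distances of 0 and 2000 bp added and removed no peak. Counted from annotated starts, an alternative chosen after seeing the data, 8 in place of 14 replicate 1 summits of Tenm3 lay in the last 10%, since its start lies inside the body. With either replicate left out, 2 teneurin genes had a peak, which follows from the counts, since Tenm3 and Tenm4 had peaks in each list. No paired analysis was possible because the lists of a single genotype were used. How depth limits these counts is unknown, since the lists hold no reads, and the 2 libraries are too few to look for an outlying sample.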
